A study of Mus musculus with 31 samples.

Results

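Total RNA was sequenced from S51A squamous cell carcinoma (SCC) cells, which cannot mount the integrated stress response (ISR), after bortezomib or vehicle, and the stress transcriptome that arose without phosphorylation of eIF2α is described here. The comparison used 8 of the 31 samples of the series, 4 bortezomib and 4 vehicle libraries, and 11708 of the 24593 genes in the total RNA table, those that passed a filter on low counts. The cells are mouse skin keratinocytes of genotype HRasG12V:TgfbrIIfl/fl in the labels, with the receptor gene given as deleted in the paper, and carry an eGFP reporter. Both lines of the study lost their own Eif2s1, the eIF2α gene, to CRISPR, so that the only eIF2α came from a myc-tagged lentiviral transgene under a PGK promoter. In S51A the serine that the stress kinases phosphorylate was replaced by alanine, and in S51, the ISR-competent control, it was kept. Each line was derived from 2 single-cell clones, and the labels do not say which clone gave which library. In a difference between the lines, the effects of genotype and of clone cannot be told apart. Bortezomib was given at 100 nM, and vehicle was DMSO. The time is 4.5 h in the labels and 4 h in the paper.

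S51A libraries held 18758668 to 22075557 reads on genes. S51A vehicle and S51 bortezomib columns were assigned as in the series' own note on exchanged titles, and not by the number in the title. Correlation of log2 CPM (reads of a gene on one common scale of library size) ran from 0.9939 to 0.9958 between S51A libraries of 1 group and from 0.9805 to 0.9835 between groups, and principal component 1 carried 77.4% of the variance of the 8 libraries. Replicates of S51A had a chi-square per gene of 2.75 or more, and sampling noise gives about 1, so none was a repeat of another. The replicates are called technical in one place and biological in another, so p-values measure the spread between these libraries, which may be technical. Eif2s1 stood at 285, 298, 294 and 301 CPM in vehicle and at 279, 299, 291 and 293 CPM in bortezomib, which checks that the gene is expressed but does not distinguish the alleles. Tgfbr2 stood at 328 to 379 CPM in vehicle, and gene counts do not show whether its floxed exon was present. The keratinocyte keratins were abundant, Krt5 at 4522 to 4821 CPM in vehicle and Krt14 at 5414 to 5586 CPM. Markers of fibroblasts, immune cells, endothelium and melanocytes summed to at most 6.94, 8.13, 1.62 and 2.95 CPM in vehicle and to at most 6.15, 10.1, 1.65 and 2.18 CPM in bortezomib, with 1 of 7, 2 of 8, 1 of 5 and 3 of 5 markers tested and none called. In bulk RNA, fewer cells of a type and less RNA per cell cannot be told apart.

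The proteasome degrades proteins that carry ubiquitin, and bortezomib blocks its chymotrypsin-like active site. Cells in which damaged proteins accumulate are known to activate several transcriptional programs. Heat shock factor 1 induces cytosolic chaperones, NRF1 induces proteasome subunits, NRF2 induces antioxidant enzymes, and p53, itself a proteasome substrate, induces growth arrest genes. In the ISR, stress kinases phosphorylate eIF2α, which lowers initiation at most mRNAs while the translation of ATF4 rises, and ATF4 with CHOP then induces a further set of genes. S51A cells lack the phosphorylation step of that last branch.

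Changes above 2-fold on bortezomib were confined to a small part of the transcriptome, while smaller changes were widespread. A gene was called where the Benjamini-Hochberg adjusted p of edgeR's quasi-likelihood test was below 0.05 and the fold change was above 2. By this rule 191 genes were higher, 1.63% of the genes tested, and 298 were lower, 2.55%. Without TMM factors, using library sizes alone, which moved the median log2 fold change of all genes from -0.01 to -0.13, the split was 155 higher and 431 lower. By adjusted p alone, 3224 genes were higher and 3378 lower, while 81.6% of all genes lay within 0.5 of no change on the log2 scale. A fold change above 4 was fitted for 30 of the higher and 20 of the lower genes. All 4 libraries of one group lay beyond all 4 of the other in 176 and 275 of the called genes. The call rule itself favours such separation, and the share over all genes is not given, so these counts add no separate support.

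**Figure D1:**
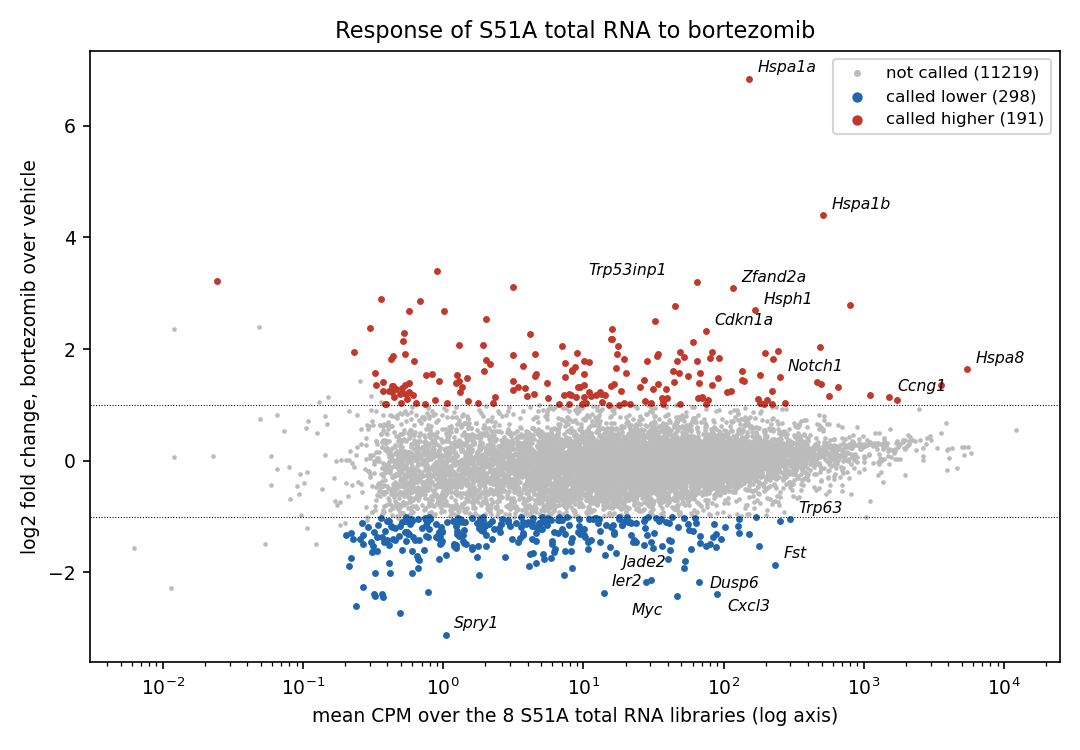
Log2 fold change of each gene in S51A total RNA, bortezomib over vehicle, against its mean CPM over the 8 libraries (log axis). Red points are the 191 genes called higher, blue points the 298 called lower, and dotted lines mark a fold change of 2. Chaperone genes stand at the upper right, where abundant genes rose, and the lower genes are spread over low and middle CPM.

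Genes that rose and genes that fell differed in level and in kind. Fewer than 5 CPM in both groups were measured for 63 of the higher and 147 of the lower genes, against 2213 of the 11708 genes tested, and the median vehicle level was 5.71, 5.03 and 28 CPM. Long noncoding RNAs made up 14.1% of the lower genes (42) and 4.71% of the higher genes (9), against 3.01% of all genes tested (352). Protein-coding genes called in either direction had fewer exons, a median of 6 for higher and 5 for lower genes against 9 for all, and shorter spans, with 16340, 15122 and 23640 bases from first to last base. Single-exon genes were 4.97% of the higher, 10.4% of the lower and 2.40% of all coding genes. Detection was taken to start above a floor of 3 counts. Zfp982 was called higher with no more than 3 counts in any S51A library, and passed the filter through the S51 libraries, so no fold is given for it, and its call was lost by DESeq2, with no filter, and in 7 of the 8 fits that left out 1 S51A library (all but that without bortezomib replicate 3). Arhgap26 was at least 4.60-fold higher against the floor, and the lower genes 9330179D12Rik, Prss12, Gm15867 and Nppb were at least 2.26-fold, 3.52-fold, 3.62-fold and 2.74-fold lower.

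Cytosolic chaperones held the 2 largest increases of the whole transcriptome. Hspa1a and Hspa1b encode the stress-inducible HSP70, which binds unfolded proteins, and lie side by side on chromosome 17 as single-exon genes. Their promoters are printed here because both hold a sequence close to a heat shock element, the site that heat shock factor 1 binds, and because these 2 genes rose the most. The promoters of Dnaja1, Hspb1 and Zfand2a follow as examples from 3 further groups of induced genes. Each is the 250 bases before the start site in RefSeq's mm10 (GRCm38.p6), on the strand of the gene, with the match in capitals.
Hspa1a (chr17:34972157-34972406, minus strand): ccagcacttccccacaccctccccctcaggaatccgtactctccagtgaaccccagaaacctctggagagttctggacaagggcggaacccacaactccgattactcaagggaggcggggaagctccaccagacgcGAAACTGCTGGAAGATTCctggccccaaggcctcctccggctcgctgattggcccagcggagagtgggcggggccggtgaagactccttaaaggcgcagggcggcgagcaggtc
Hspa1b (chr17:34959239-34959488, minus strand): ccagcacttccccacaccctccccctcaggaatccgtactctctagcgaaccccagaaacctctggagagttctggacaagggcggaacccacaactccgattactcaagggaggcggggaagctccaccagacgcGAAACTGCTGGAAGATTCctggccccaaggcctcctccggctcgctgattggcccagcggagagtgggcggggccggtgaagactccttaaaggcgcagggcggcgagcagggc
Dnaja1 (chr4:40722218-40722467, plus strand): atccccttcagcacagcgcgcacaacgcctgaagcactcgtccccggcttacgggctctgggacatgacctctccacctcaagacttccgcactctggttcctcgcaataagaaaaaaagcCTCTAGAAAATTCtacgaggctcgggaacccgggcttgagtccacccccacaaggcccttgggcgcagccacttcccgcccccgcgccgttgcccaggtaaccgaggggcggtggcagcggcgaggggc
Hspb1 (chr5:135887669-135887918, plus strand): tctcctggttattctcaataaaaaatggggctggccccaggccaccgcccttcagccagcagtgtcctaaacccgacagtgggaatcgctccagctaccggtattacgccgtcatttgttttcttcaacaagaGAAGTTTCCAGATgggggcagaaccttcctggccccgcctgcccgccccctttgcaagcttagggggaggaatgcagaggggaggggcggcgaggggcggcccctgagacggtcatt
Zfand2a (chr5:139484492-139484741, minus strand): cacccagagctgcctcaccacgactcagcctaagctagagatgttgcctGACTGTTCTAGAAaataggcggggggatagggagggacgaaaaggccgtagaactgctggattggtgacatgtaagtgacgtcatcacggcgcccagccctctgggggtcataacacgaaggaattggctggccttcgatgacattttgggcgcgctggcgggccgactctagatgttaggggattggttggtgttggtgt

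The element was searched as GAANNTTCNNGAA or TTCNNGAANNTTC, which are each other's reverse complement, in 1 promoter per gene from 250 bases before to 50 after the start. At most 1 of the 9 fixed letters was allowed to differ. With that allowance, the element was found in 11% of the promoters of higher genes (16 of 146), 3.33% of those of lower genes (7 of 210), 5.32% of all genes tested (501 of 9418) and 7.24% of all promoters in the table. Among the cytosolic chaperone lists it was found in 28.3% of the promoters of tested genes (13 of 46) and in 46.7% of those of called genes (7 of 15). An unchanged element was found in 3 promoters of higher genes, 0 of lower genes and 39 of all genes tested. These 3 were Hsph1, Chordc1 and Nploc4, and in Hsph1 the match began 36 bases after the start, within the stretch shown next.
Hsph1 (chr5:149636287-149636316, minus strand): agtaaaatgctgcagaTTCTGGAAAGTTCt
The letters describe these windows and not binding. Motifs of other stress factors had shares in higher genes, lower genes and all genes tested of 2.05%, 1.90% and 2.11% for the ATF4-CHOP element TGATGNAA, 18.5%, 17.6% and 15% for the NRF2 element TGACNNNGC, and 0.685%, 0% and 0.149% for the ER stress element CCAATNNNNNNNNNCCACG. The NF-κB motif had 5.48%, 7.62% and 4.91% and the p53 motif 0.685%, 0% and 0.0212%. The p53 shares stand for 1 of 146, 0 of 210 and 2 of 9418 promoters. The 0.685% of the ER stress element is also 1 of 146, so neither shows an enrichment. All motifs were searched on both strands.

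Hspa1a rose the most, from 2.60, 2.72, 2.46 and 2.63 CPM in the vehicle libraries to 290, 311, 316 and 285 CPM in the bortezomib libraries. This was a log2 fold change of 6.85 ± 0.089 (SE, n = 4 and 4), or 115-fold, with an edgeR adjusted p of 5.06e-26. The groups were far apart and each was narrow. Hspa1b went from 42.4, 47.6, 45.6 and 50.2 CPM to 842, 1101, 878 and 1103 CPM, 21.1-fold, so that it began higher than Hspa1a and remained higher. The authors counted uniquely mapped reads, and the 2 genes are nearly identical, so reads in shared sequence were lost to both and the split between them is uncertain. Hspa1l, the adjacent testis-type HSP70 gene that shares sequence with both, was called lower, from between 2.33 and 3.20 CPM to between 0.914 and 1.36 CPM, and is uncertain for the same reason.

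In all, 4 of the 12 tested HSP70 and HSP110 genes rose and 1 fell, against 1.63% and 2.55% of all genes tested. The constitutive HSP70, Hspa8, was the most abundant, at 2346, 2638, 2446 and 3214 CPM in vehicle and 7430, 8721, 7535 and 9492 CPM in bortezomib (3.12-fold, edgeR adjusted p 3.32e-13). Hsph1, an HSP110 nucleotide exchange factor for HSP70, went from 44.2, 44.2, 38.6 and 52.3 CPM to 237, 308, 232 and 385 CPM (6.47-fold). The mitochondrial HSP70, Hspa9, had a log2 fold change of 0.20 and was not called. Summed over the list, HSP70 and HSP110 mRNA was 4844 to 5806 CPM in vehicle and 11540 to 14090 CPM in bortezomib.

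The partners of HSP70 rose with it. Of 18 cytosolic J-domain proteins, which deliver clients to HSP70, 5 rose and 0 fell, against 1.63% and 2.55% of all genes tested. Dnaja1 went from 183, 189, 190 and 208 CPM to 679, 843, 688 and 932 CPM (4.09-fold), and Dnajb1 from 80.5, 77.8, 82.3 and 87.1 CPM to 278, 331, 281 and 367 CPM (3.83-fold). Dnaja4, Dnajb4 and Dnajb2 had log2 fold changes of 1.78, 1.60 and 1.28. Of 11 small heat shock proteins and BAG cochaperones, 4 rose and 0 fell. Bag3, which links HSP70 to selective autophagy, went from 33.0, 33.5, 33.6 and 34.4 CPM to 112, 140, 111 and 159 CPM (3.88-fold), and the αB-crystallin gene Cryab from 42.8, 41.4, 43.0 and 34.4 CPM to 117, 176, 122 and 162 CPM (3.58-fold). Hspb8, the partner of Bag3, rose 2.56-fold and Hspb1 (HSP27), abundant in keratinocytes, rose 2.13-fold, while Bag1 had a log2 fold change of 0.31. With library sizes alone Hspb1 had a log2 fold change of 0.97, under the threshold.

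HSP90 was also induced. Of 16 HSP90 genes, cochaperones and heat shock factors, 5 rose and 0 fell, against 1.63% and 2.55% of all genes tested. Hsp90aa1, the inducible HSP90, went from 2032, 1973, 1934 and 2030 CPM to 4569, 5609, 4535 and 5809 CPM (2.58-fold, edgeR adjusted p 2.48e-15). The constitutive Hsp90ab1 had a log2 fold change of 0.92, under the fold threshold. Among the cochaperones, the HSP90 ATPase activators Ahsa2 and Ahsa1 rose 3.45-fold and 2.12-fold, and Chordc1 had a log2 fold change of 1.03, which lay between 0.94 and 0.99 without vehicle replicate 3, bortezomib replicate 2 or bortezomib replicate 4. With library sizes alone 3 genes of the list were called, and Ahsa1 and Chordc1 had 0.97 and 0.92. Hsf2 rose 2.18-fold, while Hsf1, whose protein is activated by its release from chaperones, had a log2 fold change of -0.02. Of 16 chaperonin genes, none was called and 11 were higher by adjusted p alone, with a median log2 fold change of 0.25. By adjusted p, 3224 of all 11708 genes tested were higher.

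Bortezomib libraries differed among themselves in these genes. Replicates 2 and 4 both lay above replicates 1 and 3 in 16 of the 18 chaperone genes called higher, against 64 of the 173 other genes called higher, 42 of the 298 called lower and 22.2% of all genes tested. This split was set after the values were seen, and chaperone genes vary together, so the counts describe it and do not test it. All 4 bortezomib libraries still lay above the vehicle libraries in the summed CPM of each chaperone list. What separated the 2 pairs of libraries was not tested.

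**Figure D2:**
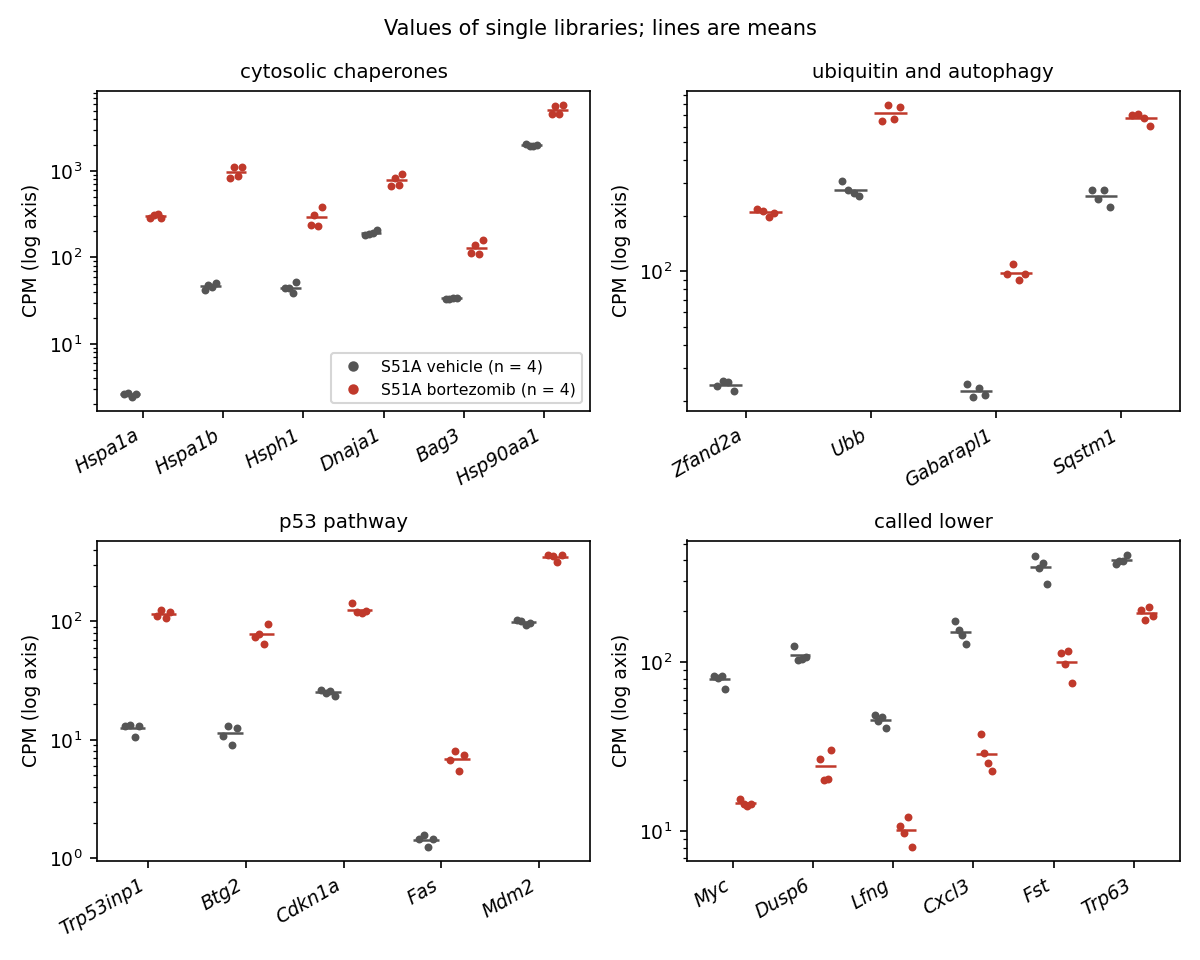
CPM of 21 genes in each of the 8 S51A libraries (log axis), in 4 panels by gene group, with vehicle in grey, bortezomib in red and a line at the mean of each group. For every gene drawn the 4 bortezomib libraries lie apart from the 4 vehicle libraries, above them in 3 panels and below them in the panel of genes called lower.

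Genes that supply ubiquitin and recognise its conjugates rose. Of 25 ubiquitin genes, AN1-type proteins and p97 factors, 5 rose and 0 fell, against 1.63% and 2.55% of all genes tested. Zfand2a (AIRAP), an arsenite-inducible protein that associates with the proteasome, went from 24.1, 25.6, 25.4 and 22.6 CPM to 216, 213, 198 and 207 CPM (8.54-fold, edgeR adjusted p 1.01e-22). The polyubiquitin gene Ubb went from 307, 274, 265 and 257 CPM to 650, 791, 669 and 769 CPM (2.61-fold), and the ubiquitin-ribosomal fusion gene Rps27a had a log2 fold change of 0.30. Zfand5, a proteasome activator, rose 2.16-fold, and Nploc4, a p97 cofactor, had a log2 fold change of 1.02. With library sizes alone 3 genes of the list were called, and Zfand5 and Nploc4 had 0.9985 and 0.91.

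Proteasome subunits shifted together and by less than the fold threshold. All 33 core and regulatory subunits were higher by adjusted p, none was called, and the median log2 fold change was 0.62, against -0.01 over all genes tested. Summed, they were 5899 to 6065 CPM in vehicle and 8809 to 9372 CPM in bortezomib, with no overlap. Values ran from 0.18 for Sem1 to 0.93 for Psma1, and the regulatory subunit Psmd2 had 0.64. Proteasome activators, assembly factors and inducible subunits had a median of 0.06 over 20 genes, or -0.06 with library sizes alone. By adjusted p, 7 of these 20 were higher and 3 lower, against 3224 and 3378 of all 11708 genes tested. The mRNA of NRF1 itself, Nfe2l1, had a log2 fold change of -0.04. In selective autophagy, 2 of 28 genes rose, against 1.63% of all genes tested. The ATG8 family member Gabarapl1 went from 24.5, 21.1, 23.3 and 21.5 CPM to 96.9, 109, 90.2 and 96.4 CPM (4.35-fold), and the receptor Sqstm1 (p62) from 276, 246, 275 and 222 CPM to 700, 711, 674 and 611 CPM (2.65-fold).

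Chaperones of the endoplasmic reticulum (ER) were among the induced genes. Of 34 ER folding and degradation genes, 2 rose, 0 fell, and 26 were higher and 3 lower by adjusted p alone, with a median log2 fold change of 0.47. Over all 11708 genes tested, 1.63% were called higher, and 3224 were higher and 3378 lower by adjusted p. Hspa5 (BiP), the ER HSP70, went from 572, 646, 538 and 953 CPM to 1183, 1604, 1234 and 2073 CPM (2.25-fold, edgeR adjusted p 8.49e-07). Vehicle replicate 4 stood above the other vehicle libraries and below all 4 bortezomib libraries, and without bortezomib replicate 4 the log2 fold change was 0.985 in place of 1.17, under the threshold. Dnajb9 (ERdj4), a BiP cochaperone, rose 2.08-fold, with a log2 fold change of 1.06 that was 0.99 without vehicle replicate 1, 0.96 without bortezomib replicate 4 and 0.94 with library sizes alone, and Xbp1 had a log2 fold change of 0.69.

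Antioxidant genes were also induced. Of 32 NRF2 and antioxidant targets, 6 rose, 0 fell and 29 were higher and 1 lower by adjusted p, with a median log2 fold change of 0.45. Among all 11708 genes tested, 1.63% were called higher, and 3224 were higher and 3378 lower by adjusted p. Gclm, the modifier subunit of the rate-limiting enzyme of glutathione synthesis, went from 37.0, 33.7, 32.3 and 32.6 CPM to 110, 96.9, 101 and 96.9 CPM (2.98-fold). The heme oxygenase gene Hmox1 went from 13.3, 15.1, 14.6 and 14.9 CPM to 38.8, 43.2, 38.4 and 37.3 CPM (2.72-fold). Osgin1 and the sulfiredoxin gene Srxn1 rose 3.42-fold and 2.89-fold, the catalytic glutathione subunit Gclc and the thioredoxin reductase Txnrd1 had log2 fold changes of 1.16 and 1.33, and Nfe2l2 (NRF2) had 0.17. Metallothionein and zinc transport genes held 1 called gene of 10, the zinc exporter Slc30a1, which fell from 30.6, 26.2, 28.4 and 19.2 CPM to 9.68, 7.68, 8.90 and 7.02 CPM.

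Many growth arrest genes rose as well. Of 27 p53 pathway and growth arrest genes, 11 rose and 0 fell, against 1.63% and 2.55% of all genes tested. The lists were chosen with earlier results known, so their counts are not ranked. Trp53inp1, a p53-induced regulator of stress and autophagy, went from 13, 13.4, 10.6 and 13.1 CPM to 111, 125, 108 and 120 CPM (9.24-fold, edgeR adjusted p 6.04e-22). Cdkn1a (p21), the cyclin-dependent kinase inhibitor, went from 26.4, 25.1, 25.6 and 23.7 CPM to 143, 119, 117 and 123 CPM (5-fold). Every bortezomib library exceeded every vehicle library for both genes. Btg2, an antiproliferative factor, went from 10.9, 13.1, 9.03 and 12.6 CPM to 74.5, 78.3, 64.5 and 94.7 CPM (6.82-fold), and the death receptor gene Fas, at 1.25 to 1.57 CPM in vehicle, rose 4.81-fold. Mdm2, which targets p53 for degradation, had a log2 fold change of 1.82 and the cyclin gene Ccng1 rose 2.21-fold, while Trp53 mRNA had a log2 fold change of 0.00. Of 15 BCL2 family genes, Pmaip1 (NOXA) was the one called, from 107, 102, 98.8 and 88.7 CPM to 381, 395, 370 and 411 CPM (3.92-fold).

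Other genes among the 15 largest increases of at least 5 CPM belonged to none of these lists. They included the homeobox gene Nkx2-9, from between 0.456 and 0.803 CPM to between 4.85 and 6.54 CPM, Inka2 (5.17-fold) and the immediate early gene Arc (4.56-fold).

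Among AP-1 and immediate early genes, more were called lower than higher. Of 27 AP-1, small MAF and immediate early genes, 4 fell and 1 rose, with a median log2 fold change of -0.34. The shares over all genes tested were 2.55% lower and 1.63% higher. Myc went from 83.3, 81.1, 83 and 69.0 CPM to 15.6, 14.5, 14 and 14.6 CPM, 5.38-fold lower with an edgeR adjusted p of 2.02e-18. Ier2 went from 21.4, 26.3, 23 and 22.6 CPM to 5.36, 5.32, 3.82 and 3.56 CPM, 5.14-fold lower. Both genes had groups that did not overlap. Junb and Klf10 fell by 1.54 and 1.48 on the log2 scale. Jun was the gene that rose, from 11.2, 12.3, 8.03 and 9.16 CPM to 24.1, 35.1, 19.9 and 42.1 CPM (2.98-fold), with replicates 2 and 4 of bortezomib again the higher pair.

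Feedback genes of the RAS-MAPK pathway, downstream of the HRasG12V oncogene that these cells carry, fell. Of 28 feedback genes and EGF receptor ligands, 7 fell and 0 rose, and 20 were lower by adjusted p against 1 higher, with a median log2 fold change of -0.44. Among all 11708 genes tested, 2.55% were called lower, and 3378 were lower and 3224 higher by adjusted p. Dusp6, an ERK phosphatase, went from 125, 104, 105 and 107 CPM to 26.7, 20.1, 20.3 and 30.2 CPM, 4.52-fold lower. Spry1 and Spry2, inhibitors of receptor tyrosine kinase signalling, were 8.66-fold and 3.18-fold lower, Spry1 from 1.60 to 2.02 CPM in vehicle to 0.141 to 0.248 CPM in bortezomib. The EGF receptor ligand gene Hbegf went from 73.7, 64.0, 60.3 and 50.3 CPM to 20, 19.4, 15.7 and 17.6 CPM, 3.41-fold lower. Dusp5, Egf and Errfi1 complete the 7, with log2 fold changes of -1.52, -1.60 and -1.05, and that of Errfi1 was -0.997 without vehicle replicate 1.

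Several inflammatory genes fell. Of 27 NF-κB factors, chemokines and cytokines, 5 fell and 1 rose in S51A, and 3 fell and 1 rose in S51. Over all genes tested, 2.55% were called lower and 1.63% higher in S51A, and 3.02% and 1.96% in S51. Cxcl3, a neutrophil chemokine, went from 175, 154, 145 and 128 CPM to 37.8, 28.9, 25.3 and 22.7 CPM, 5.25-fold lower, and Cxcl1 from 60.1, 58.5, 39.9 and 38.8 CPM to 13.3, 12.2, 8.41 and 10.9 CPM, 4.38-fold lower. For both, the lowest vehicle library was above the highest bortezomib library. Cxcl5 and the NF-κB inhibitors Tnfaip3 (A20) and Nfkbia (IκBα) fell by 1.49, 1.37 and 1.08 on the log2 scale. The gene that rose was Il1f9, an IL-1 family cytokine of epithelia, from 7.89, 8.49, 7.72 and 4.99 CPM to 27.4, 26.9, 27.7 and 27.2 CPM (3.76-fold).

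Notch and TGF-β genes moved in both directions. Of 27, 4 fell and 1 rose, against 2.55% and 1.63% of all genes tested. Notch1, the receptor, went from 137, 141, 128 and 118 CPM to 386, 376, 364 and 356 CPM (2.83-fold), whereas Lfng, a glycosyltransferase that modifies Notch, went from 48.8, 44.9, 47.6 and 40.8 CPM to 10.7, 9.75, 12.2 and 8.13 CPM, and Hes1, a classical Notch target, from 38.9, 36.1, 29.0 and 34.3 CPM to 11.9, 12.9, 9.5 and 15.8 CPM. The TGF-β feedback genes Smad7 and Pmepa1 fell by 1.14 and 1.10 on the log2 scale. Among the 15 largest decreases outside the lists, Fst (follistatin), which binds activin, was the most abundant, from 425, 358, 386 and 290 CPM to 113, 97.2, 116 and 74.9 CPM, 3.63-fold lower. The others were Pik3ip1, Tcim, Ap5b1, Rad51ap2, B3galt6, Jade2 and Angptl4, from 4.13-fold to 3.41-fold lower.

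Some epidermal identity genes fell and none was called higher. Of 19 keratins and basal markers, 2 fell and 0 rose, and of 16 differentiation genes 2 fell and 0 rose. Over all genes tested, 2.55% were called lower and 1.63% higher. By adjusted p, 4 of the 19 were lower and 4 higher, and 8 of the 16 were lower and 3 higher. Of all 11708 genes, 3378 were lower and 3224 higher by adjusted p. Trp63 (p63), the master transcription factor of stratified epithelia, went from 382, 397, 396 and 430 CPM to 203, 179, 212 and 186 CPM, 2.06-fold lower, and Sox2, a stem cell factor of these tumours, was 2.08-fold lower. The differentiation genes were Ovol1 and the transglutaminase Tgm1, which were 3.01-fold and 2.28-fold lower. Of 27 focal adhesion and integrin genes, Itgb6 and Fermt1 (kindlin-1) fell by 1.14 and 1.03 on the log2 scale. Without bortezomib replicate 1 or 2 the log2 fold change of Sox2 was -0.98, and that of Fermt1 was -0.995 without vehicle replicate 3 and -0.99 without bortezomib replicate 2, all under the threshold.

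Several large complexes shifted by less than the threshold. Ribosomal protein genes were higher by adjusted p in 77 of 79 members, with a median log2 fold change of 0.29, and nuclear-encoded respiratory chain genes in 67 of 76, with a median of 0.21. None of their members was called. With library sizes alone the medians were 0.17 and 0.09, with 74 and 36 genes higher by adjusted p. Of 42 cell cycle genes, 24 were lower by adjusted p and 6 higher, and the inhibitor Cdkn2b (p15) was the one called, 2.34-fold higher. Replication-dependent histone genes were lower in 27 of 53 and higher in none by adjusted p, with a median of -0.16. Cholesterol synthesis genes were higher in 21 of 29, with a median of 0.34, and Insig1 rose 2.02-fold, with a log2 fold change of 1.02 that was 0.99 without vehicle replicate 1, 0.98 without bortezomib replicate 3 and 0.90 with library sizes alone. Tubulins had a median of 0.21 over 10 genes and centrosome genes -0.05 over 44, with none called in either. Zinc finger genes of the Zfp series had 12 called lower and 3 higher of 255, the higher including Zfp982 at the floor. By adjusted p, 101 were lower and 29 higher, with a median of -0.18. Over all 11708 genes tested, 2.55% were called lower and 1.63% higher, and 3378 were lower and 3224 higher by adjusted p. With library sizes alone 45 histone genes were lower, 1 of them called, Zfp genes were lower in 138 and higher in 15, cell cycle genes lower in 31 and higher in 2, and the medians of tubulins and centrosome genes were 0.09 and -0.17. Among 22 CLK kinase and SR splicing genes the cold-inducible Cirbp was the one called, 2.13-fold lower, with a log2 fold change of -0.999 without bortezomib replicate 4.

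**Figure D3:**
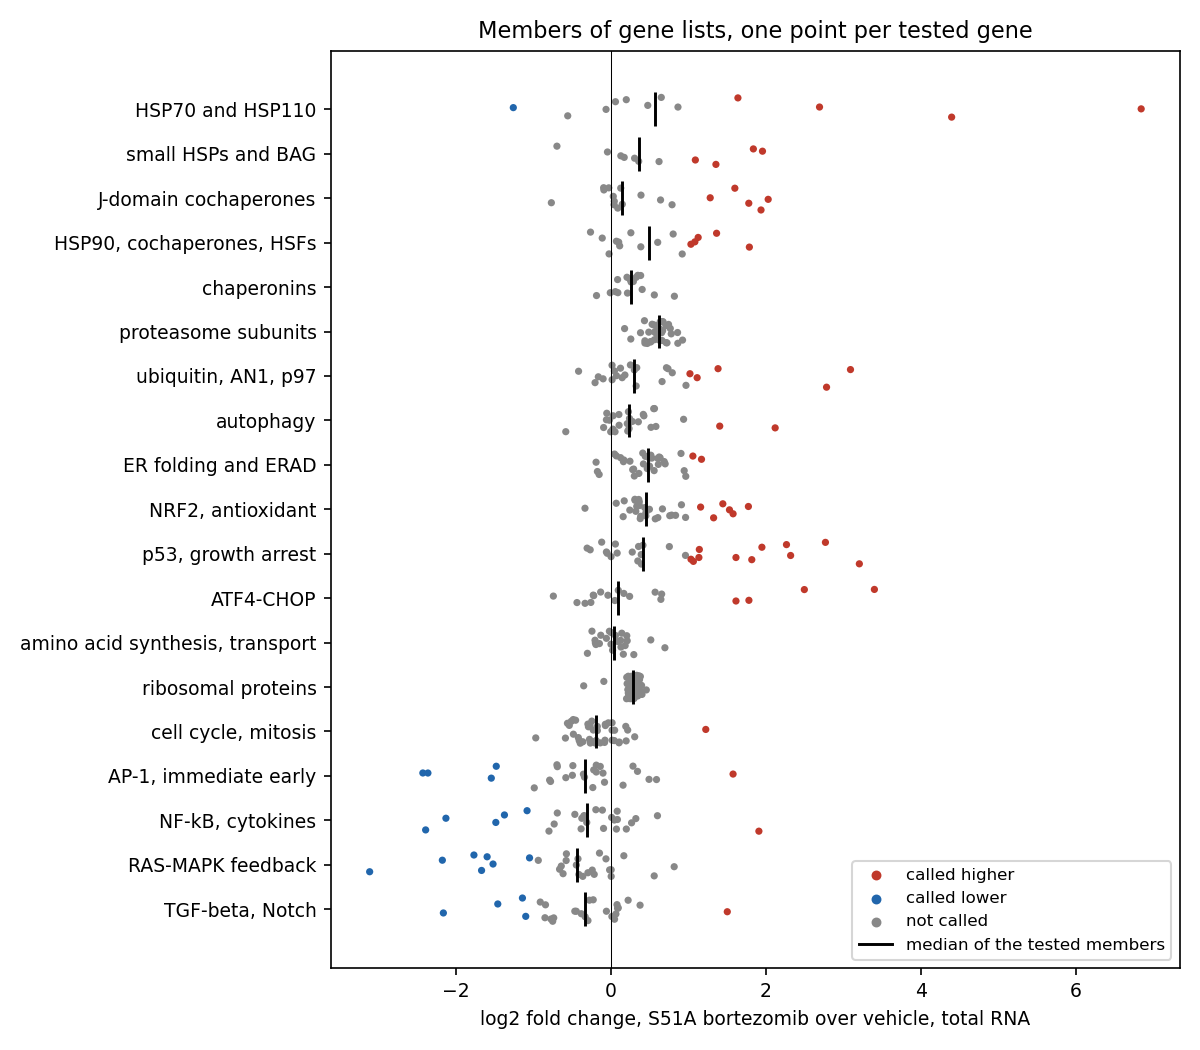
Log2 fold change in S51A of every tested gene of each list, 1 list per line, with called genes coloured and the list's median as a bar. Proteasome subunits lie between 0.18 and 0.93 without a called member, chaperone and p53 lists have called genes far to the right, and the RAS-MAPK, AP-1 and NF-κB lists have medians between -0.31 and -0.44.

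Genes of the ISR itself differed in how far they rose without eIF2α phosphorylation. Of 19 ATF4-CHOP regulators and effectors, 4 were called higher in S51A, against 10 in S51, where 1.96% of genes tested were called higher and 3.02% lower. By adjusted p alone, 9 of the 19 were higher in S51A and 4 lower. The list's median log2 fold change was 0.10 in S51A, or -0.02 with library sizes alone, and 1.02 in S51. The 4 were Ddit4 (REDD1), an mTORC1 inhibitor, the stress-induced leucine sensor Sesn2, the death receptor Tnfrsf10b and the cytokine Gdf15. Ddit4 went from 7.48, 10.3, 10.1 and 11.4 CPM to 51.1, 61.4, 52.8 and 56.7 CPM in S51A (5.65-fold), and from 19.2, 16.6, 12.9 and 16.4 CPM to 97.6, 95.0, 96.8 and 95.1 CPM in S51. Tnfrsf10b went from 12.4 to 13.5 CPM in vehicle to 43.8 to 44.7 CPM in S51A, with a log2 fold change of 1.78 in S51A and 1.75 in S51. Gdf15 was low, at 0, 0.323, 0.301 and 0 CPM in vehicle and 1.69, 1.79, 1.42 and 1.68 CPM in bortezomib. Each of the 4 is also known as a p53 target, and whether p53 acted on them here was not tested.

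In the other direction stood Chac1, Atf3, Trib3 and Ddit3, whose response was called weaker in S51A. Chac1, a glutathione-degrading enzyme induced by ATF4, was 18.4, 23.3, 30 and 26.5 CPM in S51A vehicle and 9.63, 16.7, 14.7 and 17.4 CPM in S51A bortezomib, but 27.1, 21.7, 16.4 and 17.1 CPM and 36.4, 39.3, 47.4 and 43.3 CPM in S51. Every S51 bortezomib library was above every S51 vehicle library, and every S51A bortezomib library was below every S51A vehicle library. The difference of the log2 fold changes was -1.77 ± 0.22 (SE, edgeR adjusted p 5.11e-06). Ddit3 (CHOP) was 10.2, 10.8, 10.7 and 13.7 CPM in S51A vehicle and 13.1, 18.1, 15 and 21.1 CPM in S51A bortezomib, with overlap, against 13, 12.4, 12.6 and 10.8 CPM and 31.9, 39.2, 35.4 and 46.0 CPM in S51. Its difference of -1.07 was -0.97 without S51A vehicle replicate 4, S51A bortezomib replicate 1 or S51 bortezomib replicate 4, under the threshold. Atf3 had log2 fold changes of -0.22 in S51A and 1.36 in S51, and the pseudokinase gene Trib3 0.05 and 1.19, with differences of -1.58 and -1.14 (edgeR adjusted p 0.000166 and 3.20e-05). Trib3 began at 16.7 to 23.4 CPM in S51A vehicle and at 36.0 to 55.0 CPM in S51 vehicle, so the lines differed before treatment.

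None of the regulators Atf4, Atf5 and Ppp1r15a was called in S51A. Atf4 mRNA was 462, 486, 490 and 515 CPM in vehicle and 479, 557, 510 and 541 CPM in bortezomib, with a log2 fold change of 0.10, and Atf5 had 0.24. Ppp1r15a (GADD34), which recruits the eIF2α phosphatase, had 0.65 in S51A and 1.22 in S51, a difference of -0.57 that passed the adjusted p (0.000633, edgeR) and not the fold threshold. Amino acid synthesis and transport genes had a median of 0.04 over 24 genes in S51A and 0.34 in S51, and aminoacyl-tRNA synthetases 0.05 and 0.25 over 20, with none called in either list, and both S51A medians were below 0, at -0.08 and -0.07, with library sizes alone. The 16 genes of eIF2, its kinases and eIF2B had a median of 0.07, or -0.04 with library sizes alone, with none called.

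**Figure D4:**
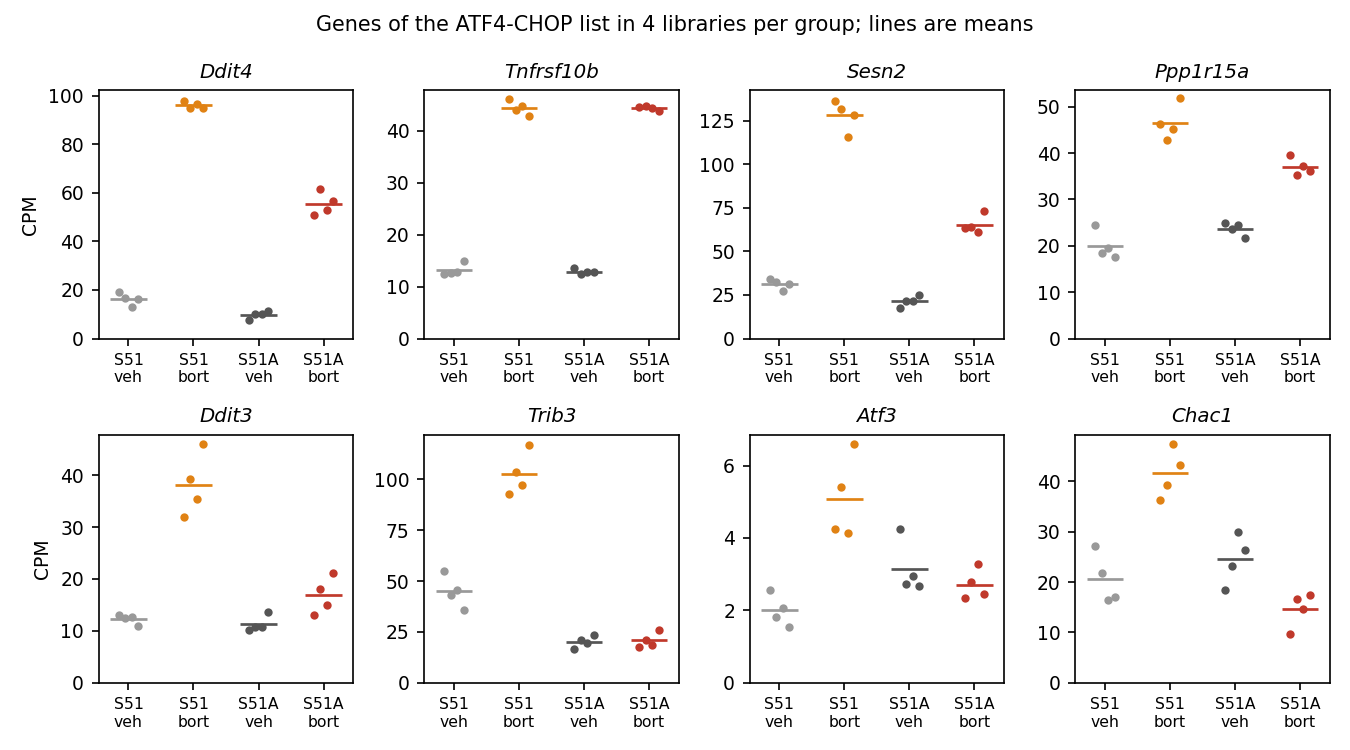
CPM of 8 ATF4-CHOP genes in each library (linear axes from 0), in vehicle and bortezomib, S51 and S51A, 4 libraries per group with a line at the mean. Ddit4, Tnfrsf10b and Sesn2 rise in both lines, while Chac1, Atf3 and Trib3 rise in S51 and not in S51A.

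Across the transcriptome, most of the S51A response was also measured in S51. Of the 191 genes higher in S51A, 135 (70.7%, and 58.7% of S51's 230) were called higher in S51, and 53 of the other 56 had the same sign there. Of the 298 lower genes, 180 (60.4%, and 50.8% of S51's 354) were called lower in S51, and 107 of the other 118 had the same sign. The median log2 fold change of the higher genes was 1.39 in S51A and 1.3 in S51, and that of the lower genes -1.29 and -1.17. Over all 11708 genes, which are not independent replicates, Pearson's r of the 2 responses was 0.79 and Spearman's rho 0.74. The 2 responses share no library. Hspa1a had log2 fold changes of 6.85 and 7.01, Zfand2a of 3.09 and 3.32, Trp53inp1 of 3.21 and 3.43, and Myc of -2.43 and -2.10.

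A difference between the lines was tested as the S51A response minus the S51 response. It was called above 0 for 19 genes, 0.162% of those tested, and below 0 for 37, 0.316%, and 4 of the higher and 12 of the lower genes of S51A were among them. The count of 19 was 11 without S51A vehicle replicate 1, 10 by DESeq2 and 30 with no filter. The chemokine gene Cxcl1 had a log2 fold change of -2.13 in S51A and -0.84 in S51, a difference of -1.29 ± 0.24 (SE, edgeR adjusted p 0.000376), and its vehicle level was 38.8 to 60.1 CPM in S51A and 14.3 to 22.9 CPM in S51. Nfkbia, named after its values were seen, had -1.08 and -0.01, while Cxcl3 had -2.39 and -2.56 and Cxcl5 -1.49 and -2.19, and neither difference was called. Ier2 had -2.36 and -0.85, a difference of -1.51 ± 0.14 (edgeR adjusted p 1.18e-07), with S51 bortezomib at 16.7, 15.8, 13.9 and 16.1 CPM. Ovol1, a differentiation factor, had -1.59 and -0.16, and Arid5a, an RNA-binding immune regulator, had -1.22 in S51A and was not called in S51.

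Further differences had other forms. Gadd45a, a growth arrest gene, had a log2 fold change of 0.06 in S51A and 1.78 in S51, whereas its relative Gadd45g rose 2.05-fold in S51A and had a difference of 1.17. The log2 fold change of Gadd45g was 0.96 without vehicle replicate 4, 0.99 without bortezomib replicate 2 or 4, 0.9955 without bortezomib replicate 3 and 0.92 with library sizes alone. Il1f9 rose in S51A with a difference of 1.17 ± 0.26 (SE, edgeR adjusted p 0.00254), but its level in S51 was at most 2.72 CPM. Ccn2 (CTGF), a YAP and TGF-β target, had -0.32 in S51A and -1.57 in S51, from 104 to 119 CPM to 33.4 to 44.1 CPM. Rassf2 had a difference of 1.14. Sqstm1 rose less in S51A, by 1.41 against 2.05, a difference of -0.65 under the fold threshold (edgeR adjusted p 7.98e-06). For Aspa and Kdm5d, also among the 8 largest differences each way, 1 line lay at or near 0 in all its libraries, and no fold is given. Kdm5d, on the Y chromosome, was at 0 CPM in S51 vehicle and at 32.3 to 36.1 CPM in S51A vehicle. The lines thus differed before treatment in a gene on the Y chromosome, and clone and genotype cannot be told apart in these differences.

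**Figure D5:**
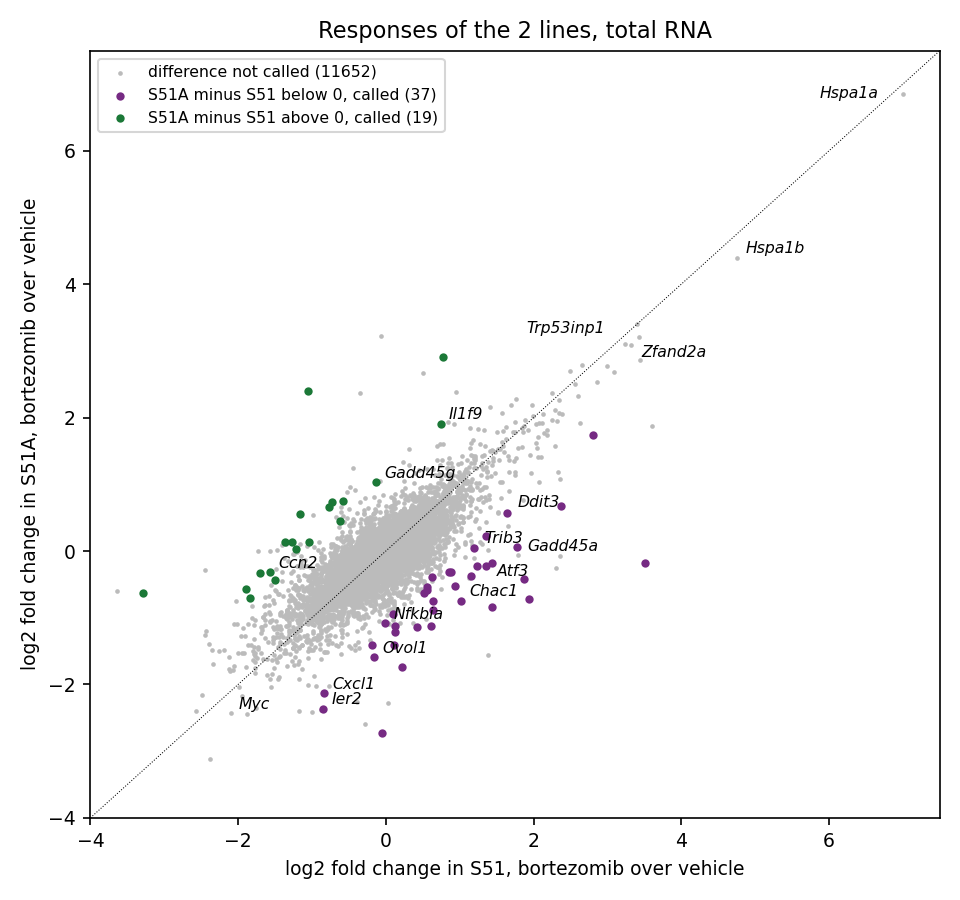
Log2 fold change on bortezomib in S51A (vertical) against S51 (horizontal) for the 11708 genes, with the diagonal of equal response. Green points are the 19 genes whose difference was called above 0 and purple points the 37 called below 0. Hspa1a, Hspa1b, Zfand2a and Trp53inp1 lie near the diagonal and Chac1, Atf3, Trib3, Ddit3 and Gadd45a below it.

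Among genes tested there, most of these changes were also measured in ribosome-protected fragments (RPFs), the pieces of mRNA that ribosomes shield from nuclease. The RPFs came from 8 other S51A libraries. In the paper, total mRNA was set aside from the lysates and the rest went to nuclease. The RPFs are thus a second readout and not independent cultures. Of 9457 genes tested there, 4.19% were called higher and 6.67% lower, at a fold change above 1.5. Of the 191 higher mRNAs, 127 were tested in RPFs and 120 (94.5%) were called higher, and of the 298 lower mRNAs 146 were tested and 128 (87.7%) were called lower. The median log2 fold change of these genes was 1.41 in total RNA and 1.47 in RPFs for the higher, and -1.27 in both for the lower. Zfand2a had 3.09 in total RNA and 4.25 in RPFs, Hspa1a 6.85 and 6.78, and Myc -2.43 and -2.53. The 1 gene called in the opposite direction was Hspa1l, with 4.58 in RPFs, where short reads of the near-identical Hspa1a and Hspa1b cannot be assigned with certainty.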

How the data were processed

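The authors deposited raw counts per gene for total RNA and for RPFs, as whole numbers without normalization, with repeated sequencing runs of a library merged. According to the methods, rRNA-depleted RNA was sequenced as single-end reads, trimmed with FastX, aligned to mm10 with bowtie2 and counted with plastid, while the submitters' processing notes list Bowtie2, featureCounts and DESeq2. Column names add unique mapping, masked repeats and marked duplicates. Unique mapping lowers genes with near-identical copies. Tool versions were not given in the sources used here.

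Counts of the 16 total RNA libraries were analysed with edgeR 4.0.16 in R 4.3.3, with TMM scaling, filterByExpr defaults (10 counts, 15 in total), glmQLFit with 1 coefficient per group, and glmQLFTest with Benjamini-Hochberg adjustment over all genes tested. Thresholds were 0.05 for the adjusted p and a fold change of 2, or 1.5 for RPFs, which were fitted alike. The fit was tested on simulated data. CPM use TMM-scaled library sizes. Precision was limited by 4 libraries per group and by totals of 18758668 or more.

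Members and gene lists were chosen with earlier results of these data known, and some genes are on more than 1 list. Named genes are the 15 largest called changes each way, with groups that do not overlap and at least 5 CPM in 1 group, up to 4 called each way and the 2 most abundant of each list (some are not printed), the 8 largest response differences each way, and stress regulators. Arhgap26, Chordc1, 9330179D12Rik, Gm15867, Nppb, Prss12, Dnajb2, Dusp5, Egf, Errfi1, Gclc, Mdm2, Nfkbia, Nploc4, Psma1, Trib3 and Txnrd1 were named after their values were seen. Promoters and gene structures are RefSeq's, GRCm38.p6, with 9418 of 11708 genes matched to a promoter, and 24569 of 24593 gene identifiers matched a symbol. Alternatives were DESeq2 1.42.0, RLE factors, library sizes alone, no filter, no fold minimum, S51A libraries only, a replicate block and leaving out each library.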

Additional observations from a re-analysis of the deposited data

Results flagged for a closer look

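Among the 123 genes named in the text with more than floor counts, 12 of 246 groups of 4 S51A libraries held 1 library far from the other 3, and chance alone gives this in about 1 in 20 groups. In vehicle these were Arc replicate 3 at 5.17 CPM, Ddit3 replicate 4 at 13.7 CPM, Dusp6 replicate 1 at 125 CPM, Myc replicate 4 at 69.0 CPM, Psmd2 replicate 4 at 388 CPM, Trp53inp1 replicate 3 at 10.6 CPM and Txnrd1 replicate 1 at 384 CPM. In bortezomib they were B3galt6 replicate 3 at 2.46 CPM, Gadd45g replicate 1 at 10.1 CPM, Mdm2 replicate 3 at 315 CPM, Trp53 replicate 1 at 64.8 CPM and Zfand5 replicate 1 at 257 CPM.

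For 14 of these genes the response differed between the lines by the edgeR interaction test. The S51A response minus the S51 response was, on the log2 scale, -1.77 for Chac1, -1.72 for Gadd45a, -1.58 for Atf3, -1.51 for Ier2, -1.43 for Ovol1, -1.34 for Arid5a, -1.29 for Cxcl1, -1.14 for Trib3, -1.07 for Ddit3 and -1.07 for Nfkbia. It was 1.25 for Ccn2, 1.17 for Il1f9, 1.17 for Gadd45g and 1.14 for Rassf2.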

How the results depend on the processing

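With any 1 S51A library left out, the genes called higher numbered 183 to 204 and those called lower 284 to 331, and 431 to 461 of the 489 calls were kept with none reversed. Without 1 library of either line, the differences above 0 numbered 11 (without S51A vehicle replicate 1) to 24 (without S51 vehicle replicate 1), and those below 0 numbered 31 to 48. DESeq2 gave 10 differences above 0 and no filter gave 30, against 19. With no fold minimum there were 3224 higher and 3378 lower genes, and 1122 differences above 0 and 1404 below. Footprint calls ranged from 350 to 403 higher and 530 to 579 lower without 1 library. Same-numbered vehicle and bortezomib libraries correlated at 0.0967, 0.113, 0.0925 and 0.191 in their deviations, each highest with its own number, a hint from the data only, and the replicate block gave 193 and 300 calls. With library sizes alone, signs near 0 turned for Atf4 (-0.0204), Gadd45a (-0.0583), Trib3 (-0.0650) and Trp53 (-0.113). Without 1 library the log2 fold change ranged from -0.0612 to 0.192 for Gadd45a, from -0.0755 to 0.136 for Trib3, from -0.0382 to 0.0176 for Trp53, from -0.0361 to 0.0026 for Eif2s1 and from -0.0460 to 0.0042 for Hsf1. The cause was not tested.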

Other observations

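Called genes outside the lists included abundant genes of the cell surface and of transcription, named after their values were seen. The tight junction gene Cldn1 went from 182, 185, 190 and 174 CPM to 68.5, 79.7, 82.7 and 67.9 CPM, and the tissue factor gene F3, which starts coagulation, from 114, 115, 110 and 110 CPM to 40.6, 39, 36.6 and 39.2 CPM. The transcription factors Snai2 and Sox4 fell by 1.57 and 1.34 on the log2 scale, and Zfp36l2, which binds AU-rich elements of mRNAs, fell by 1.54. In the other direction Apaf1, the scaffold of the apoptosome, went from 43, 50, 43.6 and 53.5 CPM to 128, 133, 127 and 146 CPM, and the collagen lysyl hydroxylase gene Plod2 rose 3.65-fold. For each of these genes the 4 libraries of one group lay beyond the 4 of the other (edgeR adjusted p at most 6.70e-12).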
